A study of Mus musculus with 18 samples.

Results

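TGF-beta and BMP family ligands and their antagonists were followed across mouse inguinal white adipose tissue and cultured adipocytes with and without an NFIA transgene. Their 10 genes were taken by symbol, 10 of the 24338 gene symbols that the tables of tissue and of cultures share. They are the TGF-beta ligands Tgfb1, Tgfb2 and Tgfb3, the BMP ligands Bmp2 and Bmp4, the BMP3-related Gdf10, the activin subunit gene Inhba, and the antagonists Fst, Fstl1 and Grem1. Each had a row in all 18 libraries. NFIA, a DNA-binding protein of the nuclear factor I (NFI) family, was the gene under study, which set wild-type (WT) mice against mice carrying an NFIA transgene (NFIA-Tg). The 6 groups of 3 libraries were WT and NFIA-Tg inguinal white adipose tissue (iWAT), and WT and NFIA-Tg adipocyte cultures before (day 0) and after (day 7) differentiation. The cultures were grown from the stromal-vascular fraction (SVF) of the inguinal depot, the cells that remain when fat cells are removed, in Dulbecco's medium with fetal bovine serum, penicillin and streptomycin. Both genotypes were differentiated alike, for 48 hours with isobutylmethylxanthine, indomethacin, dexamethasone, insulin, T3 (triiodothyronine) and rosiglitazone, and from then on with serum, insulin, T3 and rosiglitazone. The sources used here do not give the promoter that drives the transgene, the strain, age and sex of the mice, or whether libraries of a group came from separate animals or cultures. The p-values therefore measure the spread between libraries, which may be technical.

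Values are FPKM, fragments counted on a gene per kilobase of its transcript and corrected for library size. In the cultures the reads behind them could be recovered, 16772594 to 28625625 per library. The depth of the iWAT libraries is unknown. Levels in iWAT and in cultures come from tables that were made separately, and their comparison is a description only. Nfia, the transgene's own gene, was at 3.73, 4.19 and 3.94 FPKM in the WT iWAT libraries and at 166, 99.6 and 157 in NFIA-Tg iWAT. At day 0 it was at 6.42, 6.30 and 6.51 in WT and 11.3, 12.48 and 11.9 in NFIA-Tg. At day 7 the order went against the labels, with 12.48, 13.04 and 12.01 in WT and 6.44, 7.32 and 7.20 in the libraries labelled NFIA-Tg. The genotype difference at day 7 therefore cannot be told apart from other differences between these cultures, and it is given below for the libraries as labelled. The same limit holds for every result that joins day 7 to another group by genotype. These are turns between stages, changes over differentiation, their difference between genotypes, and iWAT set against day 7. Which genes turn between stages would change if the day 7 labels were exchanged. The summed FPKM of 8 mature adipocyte markers was 27900 to 40100 in iWAT, 13.3 to 31.8 at day 0 and 24700 to 29500 at day 7, which fits the labelled tissue and stages. The sum of 7 proliferation markers was also higher at day 7 than at day 0. In WT it was 316 to 318 at day 0 and 624 to 656 at day 7. In NFIA-Tg it was 128 to 136 and 298 to 321.

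Ligands of this family are secreted as dimers and bind pairs of type I and type II serine/threonine kinase receptors. TGF-beta and activin signal mainly through Smad2 and Smad3, BMPs through Smad1, Smad5 and Smad9, and both branches share Smad4. TGF-beta ligands leave the cell bound to a latency peptide and have to be activated outside it. Follistatin (Fst) binds activins and some BMPs, and gremlin 1 (Grem1) binds BMPs, so that both keep ligands from their receptors. In adipose precursors, TGF-beta and activin A are known to hold back differentiation into fat cells, while BMP2 and BMP4 are known to favour commitment to the adipocyte lineage.

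NFI proteins bind the palindrome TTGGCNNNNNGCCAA and, more weakly, a single arm of it, TTGGC. RefSeq promoter windows (build GRCm38.p6) were found for 7 of the 10 genes, Tgfb1, Tgfb2, Bmp4, Gdf10, Inhba, Fstl1 and Grem1. The 250 bases before the start of Gdf10 (chr14:33923337-33923586, plus strand) and Tgfb2 (chr1:186705990-186706239, minus strand), which were higher in NFIA-Tg at day 0, and of Inhba (chr13:16011601-16011850, plus strand) and Grem1 (chr2:113758649-113758898, minus strand), which were lower, are shown 5′ to 3′ with TTGGC on either strand (TTGGC or GCCAA) in capitals.
Gdf10: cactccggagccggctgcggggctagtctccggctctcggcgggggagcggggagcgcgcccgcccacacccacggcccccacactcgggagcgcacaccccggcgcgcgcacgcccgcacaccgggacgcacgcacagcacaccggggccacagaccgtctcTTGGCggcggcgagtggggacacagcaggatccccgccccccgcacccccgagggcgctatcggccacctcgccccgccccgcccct
Tgfb2: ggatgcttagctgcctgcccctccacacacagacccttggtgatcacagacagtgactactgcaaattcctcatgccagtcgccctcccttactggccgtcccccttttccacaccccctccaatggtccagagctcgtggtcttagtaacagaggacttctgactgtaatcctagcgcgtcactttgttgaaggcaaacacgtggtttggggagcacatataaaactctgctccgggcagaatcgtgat
Inhba: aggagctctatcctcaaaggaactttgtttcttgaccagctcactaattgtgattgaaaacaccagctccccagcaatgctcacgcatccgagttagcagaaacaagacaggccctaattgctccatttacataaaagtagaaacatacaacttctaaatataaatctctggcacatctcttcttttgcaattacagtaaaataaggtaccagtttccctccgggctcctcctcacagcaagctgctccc
Grem1: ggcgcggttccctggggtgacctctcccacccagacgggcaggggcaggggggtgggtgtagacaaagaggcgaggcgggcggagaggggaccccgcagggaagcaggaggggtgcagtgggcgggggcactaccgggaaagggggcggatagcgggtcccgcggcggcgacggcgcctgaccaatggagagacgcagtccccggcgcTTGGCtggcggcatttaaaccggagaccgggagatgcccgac
Gdf10 holds 1 match, starting 87 bases before the start, and Grem1 holds 1, at 42 bases. Neither Tgfb2 nor Inhba holds these letters in the window. Of the 7 windows, 3 hold TTGGC (those of Gdf10, Grem1 and Bmp4), against 41.5% of all 32851 promoter windows of this length. The Smad-binding letters CAGAC, on either strand, are in 3 of the 7 (Tgfb2, Gdf10 and Grem1) and in 42.2% of all windows. The full palindrome is in none of the 7 and in 0.0365% of all. These are letter matches and not measured binding.

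**Figure D1:**
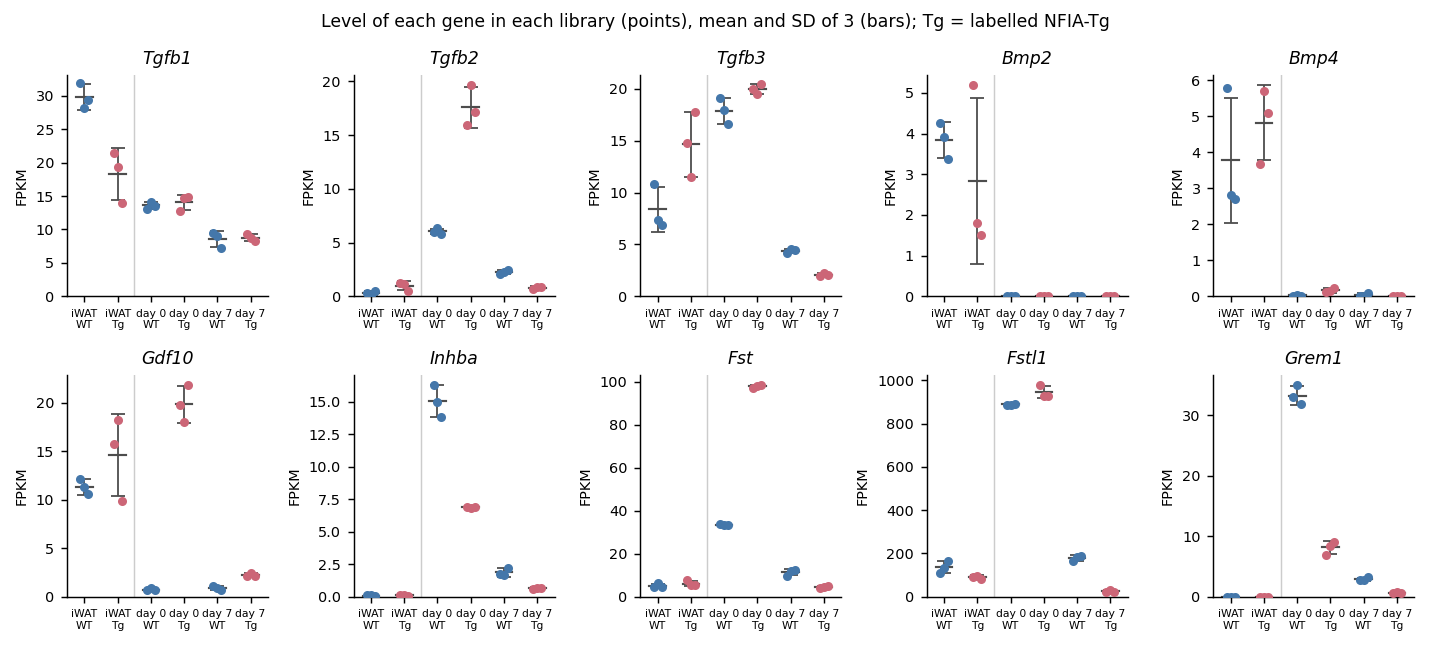
FPKM (y axis, from 0, a scale for each gene) of the 10 genes in the 6 groups (x axis), with a point per library (blue WT, red labelled NFIA-Tg), the mean and the SD (n = 3). Gdf10, Fst and Tgfb2 stand highest in the day 0 NFIA-Tg cultures, Inhba and Grem1 in the day 0 WT cultures, and Tgfb1 in WT iWAT.

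The genes were tested with limma on log2(FPKM + 1), and called below means an adjusted p under 0.05 (Benjamini-Hochberg, over all genes tested). In the undifferentiated day 0 cultures the NFIA-Tg libraries had more RNA of Gdf10, Fst and Tgfb2 and slightly more of Tgfb3, and less of Inhba and Grem1. Of the 8 genes that passed the filter on low values, 4 were called higher, where 28.1% of all genes tested were, and 2 lower, where 34.9% were. Gdf10, among those called higher, passed the filter through its NFIA-Tg libraries. Tgfb1 and Fstl1 were not called. The median log2 change was 0.12 over these 8 and −0.03 over all genes, whose split of 3533 higher and 4378 lower became 4112 and 3703 with median-of-ratios scaling. Bmp2 and Bmp4 did not pass the filter in the cultures. Markers of proliferating cells also moved at day 0, all 7 of them lower in NFIA-Tg (summed FPKM 316 to 318 in WT and 128 to 136 in NFIA-Tg), and their part in the results was not tested.

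As labelled, Tgfb2, Tgfb3 and Fst were higher in NFIA-Tg at day 0 and lower at day 7, Tgfb3 by a small day 0 difference whose call was lost in 7 alternatives. Gdf10 was higher on both days, and Inhba and Grem1 were lower. This pattern rests on the day 7 labels. At day 7 the libraries labelled NFIA-Tg had less RNA of Fstl1, Grem1, Fst, Tgfb2, Tgfb3 and Inhba, 6 of 8 genes tested, where 51.1% of all genes were called lower. Gdf10, which passed the filter through its NFIA-Tg libraries, was called higher, where 29.8% of all genes were, and Tgfb1 was not called. The median log2 change was −0.84 over the 8 and −0.17 over all genes. The all-gene median moved to −0.26 on a TPM scale and to −0.06 with median-of-ratios scaling, and the 6 genes were lower under every alternative tried, the change nearest to 0 being −0.70, for Tgfb3. Markers of preadipocytes and fibroblasts were lower too, 8 of 9 tested called lower and 1 higher. Their summed FPKM was 1080 to 1220 in WT and 245 to 332 in the libraries labelled NFIA-Tg, with Dpp4 at 0 in all 3 of the latter, while mature adipocyte markers, 3 of 7 of them called lower, summed to 24700 to 29000 and 25900 to 29500. Pericyte and smooth muscle markers had 4 of 6 lower and 2 higher, with sums of 63.0 to 75.4 and 32.6 to 37.2. Proliferation markers were again lower, 7 of 7, at 624 to 656 and 298 to 321. In such bulk samples fewer cells of a type and less RNA per cell cannot be told apart, and the part of these cells in the result was not tested.

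Nearly the whole set was lower at day 7 than at day 0. From day 0 to day 7, 7 of the 8 genes were called lower in WT, where 35.4% of all genes were lower and 46.2% higher. Gdf10 was not called. In the cultures labelled NFIA-Tg all 8 were called lower, where 41.5% of all genes were lower and 45.7% higher. The median log2 change was −1.65 in WT and −2.73 in NFIA-Tg, beside 0.09 and 0.05 over all genes. On a TPM scale the all-gene medians were −0.06 and −0.18, and the split of calls over all genes turned from 5796 higher and 4450 lower to 4632 and 5492 in WT and from 5741 and 5209 to 4646 and 6308 in NFIA-Tg. The directions of the called genes of the set were the same on that scale. Preadipocyte and fibroblast markers fell in both genotypes too, 8 of 9 in WT and 9 of 9 in NFIA-Tg, from a summed 4990 to 5170 FPKM at day 0 in WT and 5360 to 6000 in NFIA-Tg, and their part was not tested.

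In the tissue, few of the genes differed. Of the 7 that passed the filter in iWAT, Tgfb3 was called higher in NFIA-Tg, where 5.96% of all genes were, and Tgfb1 lower, where 5.44% were, and 5 were not called. Tgfb2, Inhba and Grem1 did not pass the filter there. Over all genes 739 were called higher and 674 lower, which became 589 and 844 with median-of-ratios scaling. Endothelial markers were lower in NFIA-Tg iWAT in 4 of 8 genes (summed FPKM 527 to 639 in WT and 364 to 446 in NFIA-Tg) and the sum of 5 skeletal muscle markers was 123 to 182 in WT and 12.1 to 40.0 in NFIA-Tg. Macrophage markers summed to 613 to 776 in WT and 538 to 686 in NFIA-Tg, and preadipocyte and fibroblast markers to 921 to 1050 and 860 to 1150. The part of these cell types in the results was not tested.

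**Figure D2:**
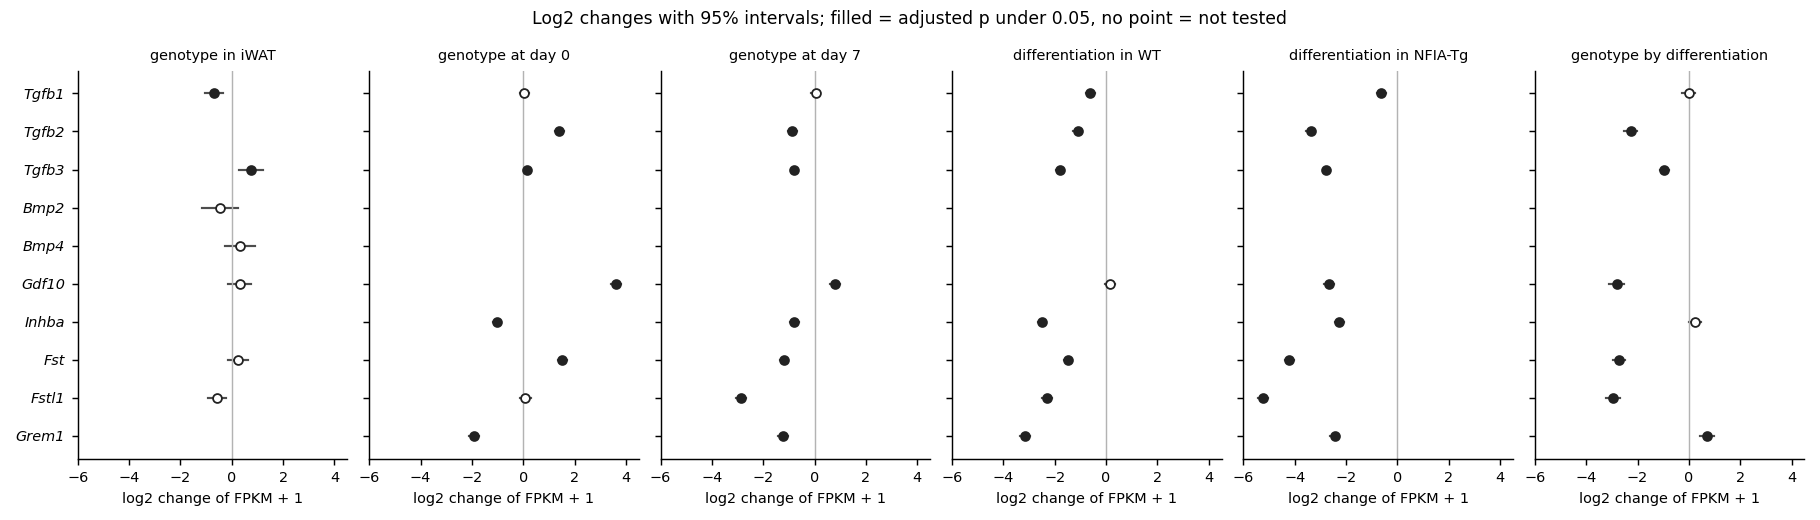
Log2 change of FPKM + 1 (x axis) of each gene (y axis) with its 95% interval in 6 comparisons, filled where the adjusted p was under 0.05 and without a point where the gene was not tested. The genotype panels compare NFIA-Tg with WT, the differentiation panels day 7 with day 0, and the last panel gives the change over differentiation in NFIA-Tg minus that in WT, from −2.95 (Fstl1) to 0.69 (Grem1).

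Among the TGF-beta ligands, Tgfb1, the isoform most widely made by immune and stromal cells, was lower in NFIA-Tg tissue, by a call that single libraries decide. It was at 32.0, 28.2 and 29.5 FPKM in WT iWAT and 21.4, 19.4 and 13.95 in NFIA-Tg iWAT, and the groups do not overlap. The log2 change was −0.70 ± 0.16 (SE; adjusted p = 0.0261 with limma). The call ended with no filter on low values (adjusted p = 0.0618) and without WT replicate 1 (0.0661), 2 (0.0581) or 3 (0.0771) or NFIA-Tg replicate 2 (0.0600), over a range of 0.00033 to 0.0771 in all alternatives. In the cultures Tgfb1 was even across genotypes. It stood at 13.1, 14.1 and 13.6 FPKM in WT and 12.8, 14.7 and 14.8 in NFIA-Tg at day 0, and at 9.50, 9.06 and 7.27 in WT and 9.28, 8.77 and 8.33 in those labelled NFIA-Tg at day 7. The groups overlap on both days, and the 95% interval of the log2 difference was −0.13 to 0.23 at day 0 and −0.15 to 0.22 at day 7. Over differentiation it fell 1.58-fold in WT and 1.61-fold in NFIA-Tg (log2 change −0.61 ± 0.08 and −0.62 ± 0.08, adjusted p = 1.85e-05 and 1.19e-05).

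Tgfb2, which is made by mesenchymal and epithelial cells, was higher in NFIA-Tg at day 0 and lower in the libraries so labelled at day 7. At day 0 it was at 6.0, 6.31 and 5.81 FPKM in WT and at 15.9, 19.7 and 17.1 in NFIA-Tg, every NFIA-Tg library above every WT library. The means differed 2.91-fold (log2 change 1.40 ± 0.08, adjusted p = 2.07e-08). At day 7 the levels were 2.08, 2.27 and 2.49 in WT and 0.631, 0.867 and 0.860 in the libraries labelled NFIA-Tg, 2.90-fold lower in the latter (log2 change −0.88 ± 0.08, adjusted p = 4.61e-07). Because these levels are near the added 1, the log2 change was −1.43 with a pseudocount of 0.1 and −1.56 on the recovered reads. The fall over differentiation was 2.65-fold in WT and 22.4-fold in NFIA-Tg, and the difference of the log2 changes was −2.27 ± 0.11 (adjusted p = 3.17e-09). In iWAT it was at 0.337, 0.137 and 0.481 in WT and 1.24, 1.17 and 0.482 in NFIA-Tg, too low to be tested.

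Tgfb3, the third isoform, was at 19.1, 17.99 and 16.6 FPKM in WT and 19.99, 19.6 and 20.46 in NFIA-Tg at day 0. The groups do not overlap, but the means differed only 1.12-fold (log2 change 0.16 ± 0.06, adjusted p = 0.0339). This small difference lost its call in 7 alternatives, among them a TPM scale (0.0637), a pseudocount of 0.1 (0.0569), all 18 samples in 1 fit (0.415), and the fits without day 0 WT replicate 2 (0.0654) or 3 (0.155) or NFIA-Tg replicate 1 (0.0688) or 3 (0.101), over a range of 0.00856 to 0.415. By day 7 its levels were 4.14, 4.55 and 4.43 in WT and 1.95, 2.27 and 2.01 in those labelled NFIA-Tg, 2.11-fold lower (log2 change −0.81 ± 0.06, adjusted p = 4.63e-08). It fell 4.09-fold over differentiation in WT and 9.63-fold in NFIA-Tg, a difference of −0.96 ± 0.08 in log2 change (adjusted p = 4.07e-07). In iWAT the libraries were at 10.9, 7.36 and 6.91 in WT and 14.7, 11.5 and 17.8 in NFIA-Tg, without overlap, and the log2 change was 0.75 ± 0.20 (adjusted p = 0.0472). That call ended without WT replicate 2 (0.123) or 3 (0.144) or NFIA-Tg replicate 1 (0.0950) or 3 (0.129), with no filter (0.1001), with a pseudocount of 0.1 (0.0503), with no trend (0.0571) and with median-of-ratios scaling (0.0745). Its range over all alternatives was 0.000606 to 0.144.

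Taken as shares of their summed FPKM, which is scaled per length, the isoforms were weighted differently in each setting. Tgfb1 made up 77.7% ± 3.16 (SD, n = 3) of the sum in WT iWAT and 53.7% ± 9.13 in NFIA-Tg iWAT, while Tgfb3 made up 21.5% ± 3.29 and 43.5% ± 10.3. At day 0 Tgfb3 had the largest mean share, 47.6% ± 2.06 in WT and 38.8% ± 2.38 in NFIA-Tg, where the ranges of Tgfb3 and Tgfb2 overlap. Tgfb2 was 16.1% ± 0.369 of the sum in WT and 34.0% ± 2.20 in NFIA-Tg at day 0. At day 7 Tgfb1 led again, at 56.2% ± 4.66 in WT and 75.4% ± 2.47 in the libraries labelled NFIA-Tg. The sum itself was 38.6 ± 4.02 and 33.9 ± 3.05 FPKM in WT and NFIA-Tg iWAT, 37.5 ± 1.36 and 51.7 ± 2.67 at day 0, and 15.3 ± 0.934 and 11.7 ± 0.393 at day 7. These shares carry no test.

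**Figure D3:**
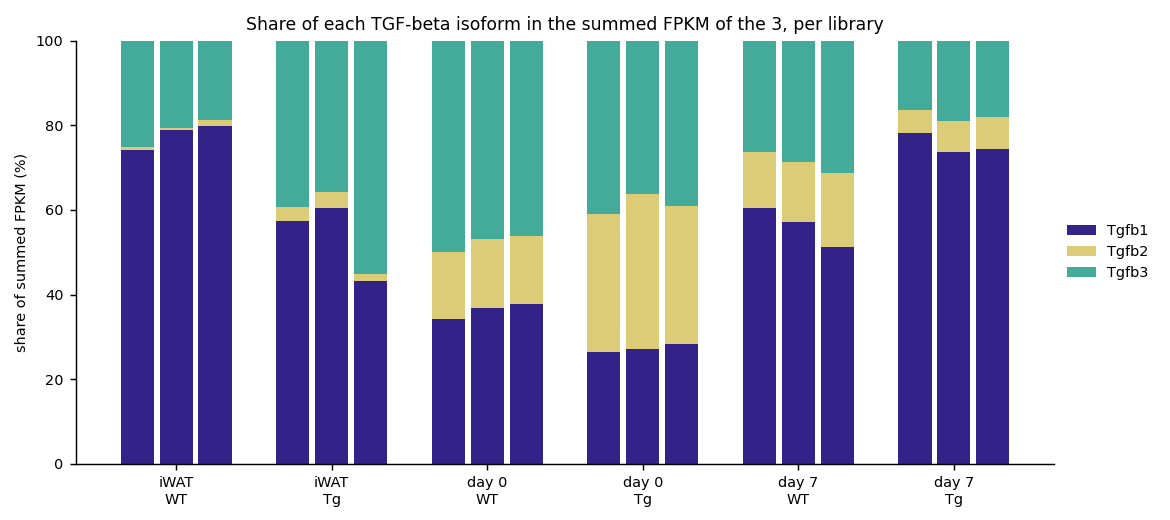
Share (%, y axis from 0) of Tgfb1, Tgfb2 and Tgfb3 in their summed FPKM in each of the 18 libraries (x axis, 3 bars for each group). Tgfb1 takes 74.1% to 79.9% in WT iWAT and 43.3% to 60.5% in NFIA-Tg iWAT, and the Tgfb2 share is 15.7% to 16.4% in WT and 32.7% to 36.5% in NFIA-Tg at day 0.

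Gdf10, a BMP3-related member of the family, had the largest genotype difference of the set at day 0. It was at 0.665, 0.839 and 0.646 FPKM in WT, from 60, 69 and 60 reads, and at 19.8, 17.97 and 21.8 in NFIA-Tg, from 1540, 1821 and 2335 reads. The means differed 27.7-fold, with a log2 change of 3.60 ± 0.09 (adjusted p = 2.82e-11). The WT cultures alone would not have passed the filter, so Gdf10 was tested there because its NFIA-Tg libraries were high. WT levels stayed low at day 7, at 1.12, 0.861 and 0.717, and the day 0 and day 7 WT libraries overlap (95% interval of the log2 difference −0.05 to 0.34). In the libraries labelled NFIA-Tg the day 7 levels were 2.16, 2.47 and 2.12, 2.50-fold above WT (log2 change 0.78 ± 0.09, adjusted p = 3.80e-06) and 8.82-fold below their own day 0 level (log2 change −2.68 ± 0.09, adjusted p = 8.74e-12). The day 7 genotype difference was 1.25 with a pseudocount of 0.1 and 1.33 on the recovered reads. The change over differentiation differed between genotypes by −2.82 ± 0.13 (adjusted p = 1.19e-09). In iWAT Gdf10 was at 12.2, 11.3 and 10.5 in WT and 15.7, 18.2 and 9.89 in NFIA-Tg, where the groups overlap (95% interval −0.15 to 0.76).

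Bmp2 and Bmp4, ligands known for their part in adipocyte commitment, were tissue transcripts in these tables. Bmp2 was at 4.25, 3.91 and 3.37 FPKM in WT iWAT and 5.19, 1.80 and 1.503 in NFIA-Tg iWAT, where replicate 1 lay above all WT libraries and the others below them. The log2 change was −0.46 ± 0.31 (adjusted p = 0.374), and without NFIA-Tg replicate 1 it was −0.87 (adjusted p = 0.0204, in a range of 0.0204 to 0.706). Bmp2 is listed at 0 in all 12 culture libraries. It is 1 of 134 genes at 0 there and at 1 FPKM or more in every iWAT library. Some of these every cell uses (Oaz1, the ribosomal protein gene Rpl26 and Ndufs5, picked after their values were seen), so this 0 may be a failed estimate. Bmp4 was at 5.79, 2.82 and 2.71 in WT iWAT and 3.68, 5.71 and 5.09 in NFIA-Tg iWAT, with overlap and a 95% interval of the log2 difference from −0.25 to 0.91. In the cultures it rested on 1, 2 and 0 reads in WT and 5, 8 and 14 in NFIA-Tg at day 0, and on 1, 0 and 4 and 1, 1 and 0 at day 7. At day 0 every NFIA-Tg library had more Bmp4 reads than every WT library, at a level under 0.24 FPKM that did not pass the filter.

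Inhba encodes the subunit that forms activin A as a dimer. It was at 16.3, 15.03 and 13.8 FPKM in WT and 6.90, 6.79 and 6.92 in NFIA-Tg at day 0, 2.19-fold lower in NFIA-Tg with no overlap (log2 change −1.03 ± 0.08, adjusted p = 2.47e-07). By day 7 the levels were 1.70, 1.64 and 2.23 in WT and 0.556, 0.695 and 0.664 in those labelled NFIA-Tg, 2.91-fold lower (log2 change −0.80 ± 0.08, adjusted p = 9.06e-07, and −1.40 with a pseudocount of 0.1 and −1.54 on the recovered reads). It fell 8.10-fold over differentiation in WT and 10.8-fold in NFIA-Tg. The difference between these falls had no settled sign, at 0.23 ± 0.11 (adjusted p = 0.0829), −0.28 with a pseudocount of 0.1, −0.06 on a TPM scale and −0.41 on the recovered reads. In iWAT it was at 0.0813, 0.0819 and 0.0561 in WT and 0.120, 0.142 and 0.0656 in NFIA-Tg, too low to be tested.

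Fst, the secreted activin binder, moved opposite to Inhba at day 0. It was at 33.7, 33.2 and 33.2 FPKM in WT and at 97.1, 98.2 and 98.3 in NFIA-Tg, 2.93-fold higher (log2 change 1.52 ± 0.08, adjusted p = 6.47e-09). By day 7 the levels were 9.70, 11.7 and 12.6 in WT and 3.90, 4.42 and 4.75 in those labelled NFIA-Tg, 2.60-fold lower (log2 change −1.20 ± 0.08, adjusted p = 1.53e-08). Its fall over differentiation was 2.95-fold in WT and 22.5-fold in NFIA-Tg, and the log2 changes differed by −2.72 ± 0.11 (adjusted p = 5.05e-10). The 3 WT and 3 NFIA-Tg iWAT libraries, at 4.24, 6.12 and 4.61 and at 7.55, 5.31 and 5.34, overlap (95% interval −0.16 to 0.64). Per length, the ratio of Fst to Inhba was 2.07 to 2.40 in WT and 14.1 to 14.4 in NFIA-Tg at day 0. At day 7 it was 5.64 to 7.13 and 6.36 to 7.16, and the genotypes overlap. No test was made of these ratios.

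Fstl1, a secreted glycoprotein with a follistatin-like domain, had the highest FPKM of the 10 genes in every group. At day 0 it was at 889, 887 and 892 FPKM in WT and 978, 930 and 930 in NFIA-Tg. The groups do not overlap, but the difference was not called (log2 change 0.09 ± 0.09, adjusted p = 0.419, 95% interval −0.11 to 0.29). At day 7 it stood at 163, 185 and 190 in WT and at 21.1, 28.5 and 22.4 in the libraries labelled NFIA-Tg, 7.46-fold lower and the largest genotype difference of the set at that stage (log2 change −2.86 ± 0.09, adjusted p = 2.78e-11). The fall over differentiation was 4.97-fold in WT and 39.4-fold in NFIA-Tg, with log2 changes that differed by −2.95 ± 0.13 (adjusted p = 1.01e-09). In iWAT it was at 110, 131 and 166 in WT and 91.9, 97.2 and 82.5 in NFIA-Tg, again without overlap. The log2 change of −0.56 ± 0.15 missed the threshold (adjusted p = 0.0503). It passed with a filter at FPKM 5 (0.0428), with median-of-ratios scaling (0.0330), without WT replicate 1 (0.0237) and with all 18 samples in 1 fit (0.00214), and its range was 0.00214 to 0.135.

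Grem1, the BMP antagonist, was lower in NFIA-Tg cultures at both stages. It was at 32.9, 34.9 and 31.9 FPKM in WT and 6.91, 8.33 and 9.08 in NFIA-Tg at day 0, a 4.10-fold difference of the means (log2 change −1.92 ± 0.09, adjusted p = 2.88e-09). By day 7 the levels were 2.79, 2.68 and 3.16 in WT and 0.552, 0.809 and 0.618 in those labelled NFIA-Tg, from 24, 35 and 17 reads in the latter, a 4.36-fold difference (log2 change −1.22 ± 0.09, adjusted p = 4.50e-08, and −1.98 with a pseudocount of 0.1 and −2.11 on the recovered reads). The fall over differentiation was 11.6-fold in WT and 12.3-fold in NFIA-Tg. The log2 changes of FPKM + 1 differed by 0.69 ± 0.12 (adjusted p = 0.000293), but by 0.05 with a pseudocount of 0.1 (adjusted p = 0.817), by 0.33 on a TPM scale (0.0703) and by −0.09 on the recovered reads (0.783), over a range of 0.000141 to 0.817. Grem1 is listed at 0 in all 6 iWAT libraries. No gene was listed at 0 in all iWAT libraries with 10 FPKM or more in every culture library, and 52, Grem1 among them, were at 0 there with 5 FPKM or more in at least 1 culture library.

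By the labels, the change over differentiation differed between genotypes for several of the genes. For the genotype by differentiation contrast, 5 of the 8 genes were called lower, where 42.6% of all genes were, namely Tgfb2, Tgfb3, Gdf10, Fst and Fstl1. Of these, Gdf10 passed the filter through its NFIA-Tg libraries and had no called change in WT (log2 change 0.14). Grem1 was called higher, where 29.5% of all genes were, on the scale dependence just given, and Tgfb1 and Inhba were not called. The median was −1.62 over the 8 and −0.11 over all genes. The preadipocyte and fibroblast markers went the same way, 9 of 9 lower with a median of −2.41, as did 7 of 7 mature adipocyte markers with a median of −0.86, and their part was not tested.

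The genotype differences in iWAT were also set against those at day 7, where 54.3% of all genes tested were called in either direction. Of the 10 genes, 5 had passed the filter both in iWAT and in the cultures (Tgfb1, Tgfb3, Gdf10, Fst and Fstl1), and for these the contrast compares 2 measured effects. Called with a higher value in iWAT than at day 7 were Fstl1 (difference of log2 changes 2.29 ± 0.20, adjusted p = 2.48e-06), Tgfb3 (1.55 ± 0.23, adjusted p = 0.000131) and Fst (1.43 ± 0.21, adjusted p = 0.000127). Tgfb1 had the lower value in iWAT (−0.73 ± 0.19, adjusted p = 0.00682). For Tgfb3 the genotype difference was 0.75 in iWAT and −0.81 at day 7. Gdf10 was not called (−0.48 ± 0.24, adjusted p = 0.114), but passed with pseudocounts of 0.1 (−0.93, adjusted p = 0.0191) and 0.5, with median-of-ratios scaling and without iWAT NFIA-Tg replicate 2, in a range of 0.0191 to 0.220. The other 5 genes entered the fit through 1 side only, Bmp2 and Bmp4 through iWAT and Tgfb2, Inhba and Grem1 through day 7, and their contrasts are not read here (those of Bmp2 and Grem1 equal the difference on that side in size). The median over all genes was 0.18, and the calls over all genes, 4690 higher and 2430 lower, became 3328 and 3308 with median-of-ratios scaling.

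The other genes of the pathway were followed in 7 lists of 89 genes, some of which stand in more than 1 list (Smad6, Smad7, Smad9, Bambi and Ltbp2) or also among the cell type markers (Col1a1 and Acta2). At day 0, where 28.1% of all genes were called higher and 34.9% lower, 9 of 10 BMP target genes were called higher in NFIA-Tg and the other was not called, with a median log2 change of 1.21. Among them was Atoh8, a transcription factor gene induced by BMP signalling. It measured 6.79 ± 0.672 FPKM in WT libraries and 39.4 ± 0.162 in NFIA-Tg (log2 change 2.38 ± 0.10 at an adjusted p of 1.94e-09). The BMP count and median include Hey1 and Smad9, which passed the filter only with the help of libraries labelled NFIA-Tg. Hey1 rested on few reads at day 0, with 3, 2 and 2 for WT against 15, 17 and 13 for NFIA-Tg. Of 12 TGF-beta target genes 3 were higher and 7 lower (median −0.39). Tgfbi, a matrix protein gene named for its induction by TGF-beta, fell from 96.8 ± 4.78 to 39.4 ± 1.71 FPKM, and Ltbp2 rose from 37.0 ± 3.92 to 68.7 ± 10.8. Receptors had 5 higher and 3 lower of 11, the latter near the share of all genes. The type II TGF-beta receptor gene Tgfbr2 fell from 92.4 ± 4.41 to 53.1 ± 2.39, and the type I receptor gene Acvrl1 rose from 15.2 ± 1.04 to 26.6 ± 0.371. Of the other ligands 7 of 8 were higher and 1 was not called, led by the stress-responsive Gdf15 (2.23 ± 0.463 to 21.1 ± 2.18). Among them Gdf6 passed the filter only through its day 0 NFIA-Tg libraries (0.516 ± 0.0677 FPKM in WT and 2.485 ± 0.177 in NFIA-Tg).

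At day 7, where 51.1% of all genes were called lower in the libraries labelled NFIA-Tg and 29.8% higher, 42 of 64 tested genes of the 7 lists were lower and 13 higher. BMP target genes had 1 higher and 7 lower of 10 (median −0.46). Atoh8 was at 6.98 ± 0.639 in WT and 2.55 ± 0.564 in those labelled NFIA-Tg. Hey1, a transcriptional repressor gene that passed the filter through the latter libraries, rose from 0.429 ± 0.0465 to 2.41 ± 0.213. TGF-beta target genes had 1 higher and 8 lower of 12 (median −1.18), led by the collagen gene Col1a1 (432 ± 23.8 to 68.3 ± 13.9), which is also a fibroblast marker. Receptors had 2 higher and 7 lower of 11, with Tgfbr3, the TGF-beta and inhibin co-receptor, falling from 63.2 ± 2.77 to 16.8 ± 0.840. Of the Smads 6 of 8 were lower and 2 were not called, with Smad3, which carries TGF-beta and activin signals, at 9.47 ± 0.286 and 5.06 ± 0.220. Other antagonists and modulators had 4 higher and 4 lower of 9 (median 0.02). Among them the follistatin-related Fstl3 was higher (3.09 ± 0.294 to 10.0 ± 0.985), opposite in direction to Fst. The proprotein convertase gene Pcsk5 was higher at day 0 (0.124 ± 0.0228 to 4.65 ± 0.173) and at day 7 (0.106 ± 0.0146 to 4.31 ± 0.289).

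**Figure D4:**
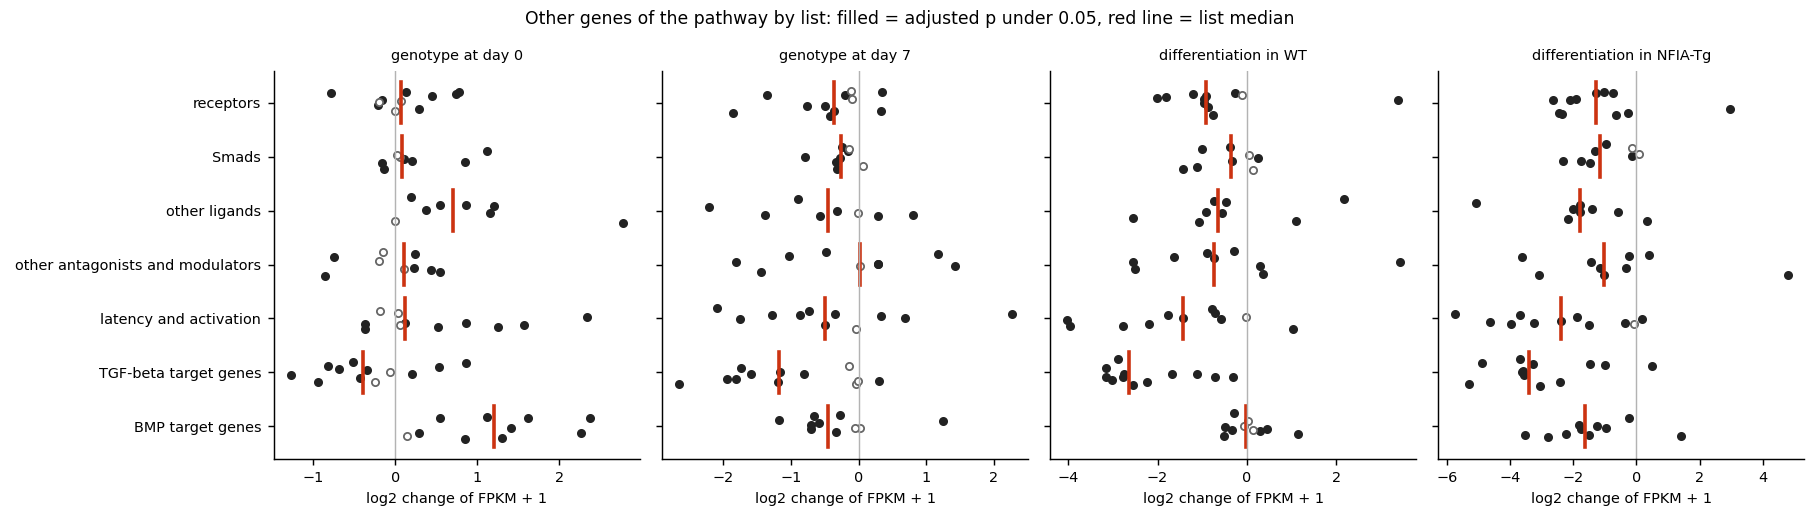
Log2 change of FPKM + 1 (x axis) of the tested genes of 7 pathway lists (y axis) in 4 comparisons of the cultures, filled where the adjusted p was under 0.05, with the list median as a red line and points spread vertically for sight only. The median of the BMP target genes is 1.21 for genotype at day 0 and −0.46 at day 7, and that of the TGF-beta target genes is −2.65 over differentiation in WT and −3.42 in NFIA-Tg.

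Over differentiation, 35.4% of all genes were called lower and 46.2% higher in WT, and 41.5% and 45.7% in NFIA-Tg. Of the TGF-beta target genes, 12 of 12 were called lower in WT (median −2.65) and 11 of 12 in NFIA-Tg (median −3.42). In NFIA-Tg Skil, an inhibitor of Smad signalling, rose from 2.31 ± 0.0936 to 3.66 ± 0.262 FPKM. Thbs1, a protein that can release TGF-beta from its latent form, fell from 1414 ± 57.0 to 85.7 ± 9.89 FPKM in WT and from 1095 ± 61.8 to 19.4 ± 1.80 in NFIA-Tg. Inhbb, the activin B subunit gene, fell from 21.5 ± 0.367 to 2.88 ± 0.362 and from 49.3 ± 2.48 to 0.484 ± 0.120. The activin-type receptor gene Acvr1c, known from fat cells, rose from 0.00769 ± 0.00231 to 9.62 ± 0.487 in WT and from 0.00563 ± 0.00580 to 6.92 ± 0.414 in NFIA-Tg, and the BMP antagonist gene Chrdl1 rose from 0.726 ± 0.137 to 17.5 ± 1.25 and from 0.502 ± 0.0850 to 40.7 ± 4.74. BMP target genes had 3 higher and 4 lower of 10 in WT (median −0.01), the latter near the share of all genes. In NFIA-Tg they had 1 higher and 9 lower (median −1.64). In iWAT 2 of 60 tested genes of all 7 lists were called higher and 4 lower, near the shares of all genes there, 5.96% and 5.44%. The BMP-type ligand gene Gdf5 rose from 1.34 ± 0.390 to 5.56 ± 1.09 and the proprotein convertase gene Pcsk6 from 30.9 ± 9.32 to 86.0 ± 11.8 FPKM, and the matrix gene Postn fell from 91.9 ± 14.5 to 28.1 ± 2.38 and Thbs1 from 53.9 ± 7.09 to 13.3 ± 7.44. Gdf5 passed the filter there only with its NFIA-Tg libraries, as the WT libraries were at 1.48, 1.64 and 0.899 FPKM. Fstl3 was at 17.2 ± 3.80 in WT iWAT and 7.83 ± 2.60 in NFIA-Tg iWAT (adjusted p = 0.0241), a call that ended with no filter (0.0687) and without WT replicate 1 (0.0631) or 3 (0.0769) or NFIA-Tg replicate 2 (0.0680) or 3 (0.0685).

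Across all 6 groups the levels of the 10 genes fell into different orders, with tissue and cultures set side by side as a description. Tgfb1 was highest in WT iWAT and lowest at day 7, and NFIA-Tg iWAT overlaps with NFIA-Tg at day 0. Tgfb2, Tgfb3, Fst and Fstl1 were highest at day 0. Tgfb3 in NFIA-Tg iWAT overlaps with WT at day 0, and Tgfb2 in NFIA-Tg iWAT with NFIA-Tg at day 7. Fst in WT iWAT, at 4.24 to 6.12 FPKM, overlaps with NFIA-Tg iWAT and with NFIA-Tg at day 7, at 3.90 to 4.75, and Fstl1 in WT iWAT, at 110 to 166, overlaps with WT at day 7, at 163 to 190. Gdf10 was highest in NFIA-Tg at day 0, which overlaps with NFIA-Tg iWAT, and lowest in the WT cultures, whose day 0 and day 7 levels overlap. Inhba and Grem1 went down in the same order, from WT to NFIA-Tg at day 0, then WT to NFIA-Tg at day 7, then iWAT, and no neighbours in that order overlap before the pair of iWAT groups.

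The genes most like each member were ranked by Pearson's r of log2(FPKM + 1) over the 18 libraries among 8868 genes with a mean of at least 5 FPKM. The libraries share their group structure and the gap between tissue and cultures, so that these values are descriptions. Inhba was nearest to Ankrd1 (r = 0.99), Enpp1 (0.99) and, of the same set, Grem1 (0.99). For Grem1 the nearest were Crabp1, Cemip and Ankrd1 (0.99 each). Fstl1 was nearest to the collagen gene Col3a1 (0.99), Ttyh3 (0.99) and Bmp1 (0.99). Tgfb2 was nearest to Cpz (0.99), Dock1 (0.99) and Ano6 (0.99), and Fst to Wnt16 (0.99), Dock1 (0.99) and Rnf169 (0.98). Gdf10 had the lowest top value of the 10, with Sgce (0.96), Tcp11l2 (0.93) and Lbp (0.93). Tgfb1 was nearest to Csf2ra (0.98), Tgfb3 to Plxdc2 (0.97), Bmp2 to Bcl6b (0.99) and Bmp4 to Cma1 (0.99). In the cultures Bmp2 is listed at 0 throughout and Bmp4 rests on 0 to 14 reads a library. The values of these 2 genes therefore rest mostly on the gap between tissue and cultures.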

How the data were processed

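Polyadenylated RNA from iWAT and SVF-derived cultures was made into stranded libraries, per the labels' protocols. In the submitters' processing notes stand STAR (2.7.8a), StringTie (2.1.1) and the build mm9, with no roles. Each deposited file holds 1 FPKM value and a length per gene, per the file headers. The sources used here do not say how strand or multiply mapped reads were treated. Multiplying FPKM by length in the culture files gave whole steps (100% of values up to 1000 reads, tolerance 0.01), and so the reads. In iWAT, 410 entries that share 180 symbols were summed. No mm9 coordinates were used, and promoters are from RefSeq.

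Replicates were compared first. Within a group, culture libraries differed by more than counting noise (chi-square over its degrees of freedom 4.23 to 27.8), and at most 0.01% of values were identical in iWAT pairs.

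Tests used limma 3.58.1 under R 4.3.3. Values were taken as log2(FPKM + 1), eBayes used a mean-variance trend, and a gene was kept with FPKM of 1 or more in 3 or more fitted samples. This filter was not blind to the groups. In the cultures Gdf10, Gdf6, Pcsk5 and Hey1 passed it through libraries labelled NFIA-Tg, and Smad9 only with its day 0 NFIA-Tg libraries. Acvr1c and Chrdl1 passed it through day 7, and Gdf5 through day 7 WT. In iWAT Gdf5 passed it only with its NFIA-Tg libraries. All tests are two-sided, with adjustment over all genes tested. A change on this scale understates that of low genes. iWAT was fitted on its 6 samples (4 residual degrees of freedom), the cultures in 1 fit of 12 (8), and iWAT against day 7 in 1 fit of 12 (8). Intervals are 95%. The fits were tested on simulated data. Alternatives were other pseudocounts, filters and scalings, no trend, a replicate block, 1 fit of all samples, each library left out and voom on the recovered reads. Members and lists were chosen with earlier results of these data known. Beside the members and Nfia, genes were eligible to be named by a rule: per list and comparison the called gene with the largest change in each direction, and the 3 genes most like each member. Not all of these are reported here.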

Additional observations from a re-analysis of the deposited data

Results flagged for a closer look

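These results stand out because the genotype effect differed between stages or between tissue and cultures by a test of that difference (limma, adjusted p under 0.05). The change over differentiation was lower in the cultures labelled NFIA-Tg than in WT for Fstl1 (difference of log2 changes −2.95), Gdf10 (−2.82), Fst (−2.72), Tgfb2 (−2.27) and Tgfb3 (−0.96). Gdf10 passed the filter through its NFIA-Tg libraries, and in WT it was low at day 0 (0.646 to 0.839 FPKM) and at day 7 (0.717 to 1.12). For Tgfb2, Tgfb3 and Fst the libraries labelled NFIA-Tg were higher at day 0 and lower at day 7. The day 0 difference of Tgfb3 was only 1.12-fold, and its call was lost in 7 alternatives. Grem1 had a difference of 0.69, which rests on the added 1 in the log scale.

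The genotype effect in iWAT minus that at day 7 was 2.29 for Fstl1, 1.55 for Tgfb3, 1.43 for Fst and −0.73 for Tgfb1, among the genes that passed the filter on low values in both. At day 7 the level of Nfia goes against the labels, and the genotype difference there cannot be told apart from other differences between these cultures. The same limit holds for the differences in the change over differentiation.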

How the results depend on the processing

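Of 57 tests of the 10 genes, 45 kept their direction and call in every alternative run, and of 43 calls 4 were lost or changed sign in at least 1 (Tgfb1 and Tgfb3 in iWAT, Tgfb3 at day 0, and Grem1 for genotype by differentiation). Of 81 results for the named genes of the lists, 12 did so. In iWAT the count of called members, 2, became 1 with a pseudocount of 0.1 or no trend, 0 with no filter, 4 with all 18 samples in 1 fit and 0 to 2 with 1 library left out. The count over all genes, 1413, became 934 with no filter, 5141 with all 18 samples and 617 to 1262 with 1 library left out (WT replicate 3 gave 617 and replicate 2 gave 814, and NFIA-Tg replicate 2 gave 638 and replicate 3 gave 745). Called members for iWAT against day 7, 7 of 10 with 3 that passed the filter only through day 7 (Tgfb2, Inhba and Grem1), became 4 with a filter at FPKM 5, which fewer of them passed. Signs turned for Tgfb1 at day 7 (0.0336, and −0.0355 with TPM, −0.0710 to 0.101 with 1 library left out), Tgfb1 for genotype by differentiation (−0.0146, and 0.0538 with median-of-ratios scaling, −0.119 to 0.0532 with 1 library left out), Inhba for the same contrast (0.23, and −0.283 with a pseudocount of 0.1, −0.0632 with TPM, −0.407 with voom), Grem1 (0.69, and −0.0855 with voom) and Pcsk6 for differentiation in NFIA-Tg (0.16, and −0.0819 with TPM). The cause was not tested. No pairing by replicate number was seen. Same-numbered deviations correlated between −0.11 and 0.16, and differently numbered ones between −0.187 and 0.195. With 3 libraries a group, these values cannot exclude a pairing. With a replicate block, 2, 6, 7, 7, 8, 6 and 7 members were called in the 7 comparisons, the same numbers as without it, and 1282 genes in iWAT. Bmp4 in the cultures rests on 0 to 14 reads a library, too few for a comparison.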
